A study of Drosophila melanogaster with 4 samples.

Results

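The 38 sarcomere genes described here code for the actins, myosin subunits, troponins, tropomyosins, titin-like proteins, Z-disc proteins and actin-capping and assembly factors of the fly myofibril. They were chosen by name, and all 38 were found by gene symbol and FlyBase identifier among the 17494 genes of the count table. Their RNA was followed in myoblasts of the *Drosophila melanogaster* wing disc, the precursors that later fuse into adult flight muscle. The myoblasts were taken at 0 hours after puparium formation (APF), before muscle differentiation, from animals raised at 29°C. In both groups the *Mef2*-Gal4 driver, which the study describes as coming on in these myoblasts late in larval life, expressed a GFP reporter together with an RNA interference (RNAi) hairpin. The hairpin was directed against *y*, a pigmentation gene, in the control (libraries named replicates 2 and 3) and against the Hox gene *Antp* in the *Antp* RNAi group (libraries named replicates 1 and 2). The labels name the GFP reporter in more than 1 way and also call the control wild type, so the exact genotypes carry that uncertainty. For each library, 30 to 35 wing discs were pooled and dissociated, and about 50000 cells were collected by fluorescence-activated cell sorting on viability, size and GFP.

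A sarcomere is built from thick filaments of myosin that slide along thin filaments of actin. Tropomyosin and the troponin complex cover the thin filament and let myosin bind when calcium rises. Thin filaments are anchored at the Z-disc by alpha-actinin and its partners, titin-like proteins tie thick filaments to the Z-disc, and capping proteins close the filament ends. Many of these proteins have cytoplasmic relatives, or are themselves used in the cytoskeleton of every cell, so RNA of such a gene need not mean that a myofibril is being made. In flight muscle, myofibrils are assembled in the pupa, after myoblasts have fused.

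Depth was 53082579 and 53957914 counts for the control and 42110502 and 46817694 for *Antp* RNAi. *Antp* itself had 25.6 and 22.9 RPKM in the control, against 18.0 and 19.2 RPKM in *Antp* RNAi. It was lower in both *Antp* RNAi libraries, a mean of 76.7% of the control, but the difference was not called (log2 fold change -0.38, adjusted p = 0.145, edgeR quasi-likelihood test). By antibody staining, a measure of protein and not of RNA, the study reports less Antp in these myoblasts with this driver and its *Antp* RNAi lines. RPKM here are counts divided by exon length and library size (per kilobase and per 1000000 counts), with library sizes scaled by the TMM method. The myoblast label was matched by *twi* (992 RPKM on average in the control), *Him* (3874 RPKM) and *zfh1* (199 RPKM), and all 11 myoblast markers listed were transcribed. Of these, *Ama* (log2 fold change -1.42, adjusted p = 0.000354, edgeR) and *ct* (-0.86, adjusted p = 0.00748) fell in *Antp* RNAi, against 2.58% of all genes tested that were called. The other 9 were not called by edgeR, among them *Mef2*, the driver's own gene (56.7 RPKM in the control, -0.33, adjusted p = 0.176). Of the 11, 6 had an unadjusted p under 0.05 in edgeR (11.5% of all genes tested). *Ama*, *ct*, *Mef2* and *vg* were lower in *Antp* RNAi, and *zfh1* and *htl* higher. DESeq2 also called *zfh1* (4.13% of all genes). Replicates are described by the labels as independent biological samples and by the study's methods as technical ones, so p-values cover only the spread between these libraries. Reads carried no molecular identifiers, and limits set by low counts therefore cover counting error only.

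To ask which sarcomere genes already had RNA before differentiation, each was placed in a class by its level. A gene was called transcribed at a mean control level of at least 1 RPKM, silent at no more than 3 counts in every library, and trace in between. By this measure 18 of the 38 genes were transcribed, 16 were at trace level and 4 were silent. Over all genes 47.1% were transcribed, 23.2% at trace level and 29.7% silent, and the sarcomere genes had 47.4%, 42.1% and 10.5%. Of the 13836 protein-coding genes, the kind to which the members belong, 7469 were transcribed, 23.8% were at trace level and 22.2% were silent. The threshold falls between *Act79B* at 1.31 RPKM and *Fhos* at 0.771 RPKM. These values are steady-state RNA, from which synthesis and turnover cannot be separated, and from a bulk sort few cells with much RNA and many cells with little cannot be told apart.

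**Figure D1:**
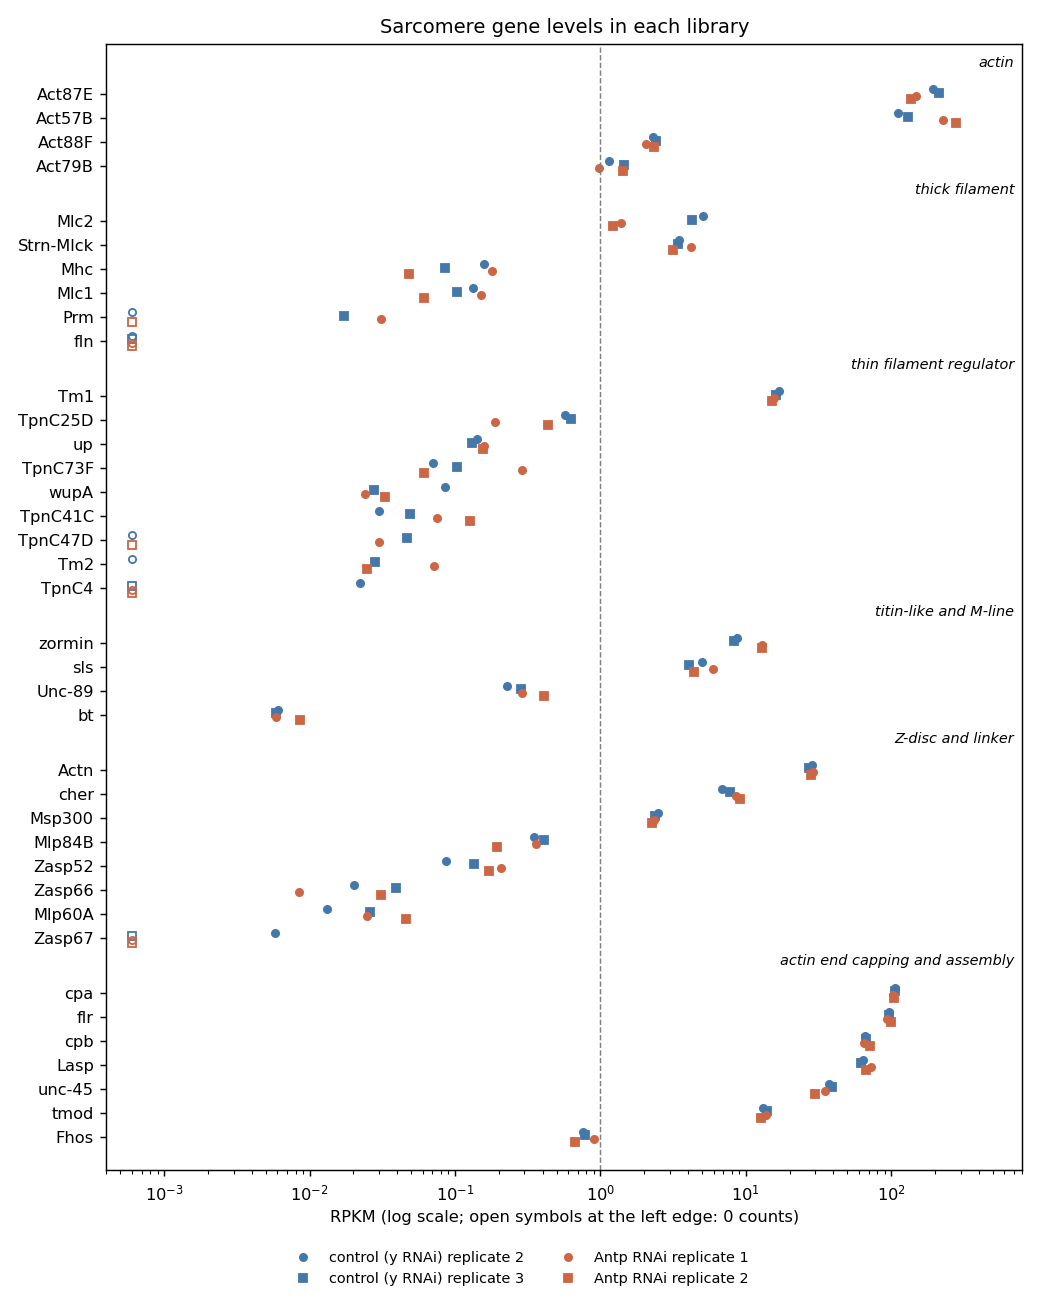
Level of each of the 38 sarcomere genes in each library, in RPKM on a log axis, grouped by role and ordered by the mean control level within a role. Blue marks control and orange *Antp* RNAi, circles and squares mark the replicates, open symbols at the left edge are libraries with 0 counts, and the dashed line at 1 RPKM is the threshold for transcribed genes; levels run from *Act87E* at 204 RPKM down to *fln* with no count.

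The classes divided by role. All 4 muscle actin genes and 6 of the 7 capping and assembly genes were transcribed. Of the 9 regulators of the thin filament, only *Tm1* was, and of the 6 thick filament genes only *Mlc2* and *Strn-Mlck* were. The titin-like and M-line genes were split 2 to 2, and 3 of the 8 Z-disc and linker genes were transcribed. Leaving out the 12 genes whose exons share bases with another gene left 8 transcribed members among the fewer genes that remained. The part shared with a single partner ran from 0.0659% of the exon bases (*Msp300*) to 100% (*Lasp*).

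**Figure D2:**
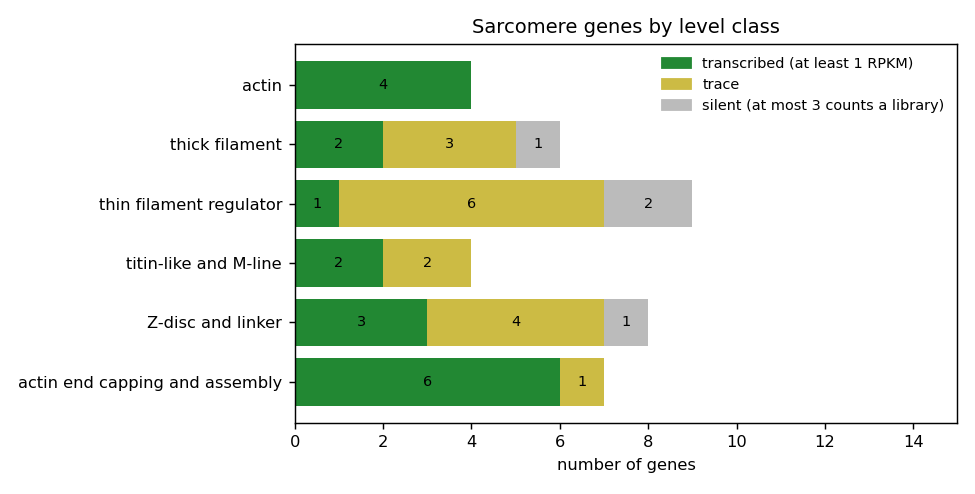
Number of sarcomere genes in each level class, by role. Bars are stacked counts of transcribed, trace and silent genes, and the row with the fewest transcribed genes is the thin filament regulators (1 of 9), while the actin row is transcribed throughout (4 of 4).

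In the thick filament, the motor itself was close to absent. *Mhc*, the only muscle myosin heavy chain gene of the fly, had 76 and 42 counts in the control, against 69 and 20 in *Antp* RNAi, and a mean control level of 0.122 RPKM. Its replicates differed more than any other tested member did, by 1.86-fold in the control and 3.74-fold in *Antp* RNAi, and the groups overlapped. Cytoplasmic myosin heavy chain *zip* was measured at 189 RPKM in both control libraries, and stood 1136 to 4171 times above *Mhc* per length across the 4 libraries.

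The myosin light chains were not at a common level. *Mlc1*, the essential (alkali) light chain of muscle, had only 10, 8, 9 and 4 counts (first the controls, then *Antp* RNAi). *Mlc2*, the regulatory light chain, had 615, 533, 135 and 128 counts, or 5.06 and 4.28 RPKM in the control. Per length, *Mlc1* stood at 0.133 and 0.104 RPKM in the control, and *Mlc2* RNA was 32.1 and 50.3 times that of *Mhc*, although the 3 proteins are parts of the same motor. Against *sqh*, the cytoplasmic regulatory light chain, *Mlc2* remained low, with *sqh* 79.6 and 92.0 times higher in the control.

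The other thick filament genes ranged from a long, transcribed kinase gene to complete silence. *Strn-Mlck*, which codes for a kinase with titin-like repeats, was transcribed at 3.44 ± 0.0600 RPKM (SD, n = 2). *Prm*, for paramyosin of the filament core, had 0 and 5 counts in the control, against 7 and 0 in *Antp* RNAi. *fln*, for flightin, a thick filament protein of flight muscle, was the only member with 0 counts in all 4 libraries, which allows at most 0.0556 to 0.0712 CPM (counts per 1000000 counts of the library) per library.

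Among the actins, which form the thin filament, the 4 genes known as muscle actins lay on 2 well separated levels. *Act87E* had 194 and 214 RPKM in the control, against 149 and 136 RPKM in *Antp* RNAi. *Act57B* had 111 and 130 RPKM in the control, against 227 and 280 RPKM in *Antp* RNAi. They were the most abundant sarcomere RNAs measured, and each had control and *Antp* RNAi libraries that did not overlap.

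*Act88F*, the actin of flight muscle, had 2.30 and 2.43 RPKM in the control, against 2.06 and 2.35 RPKM in *Antp* RNAi. *Act79B*, an actin of tubular muscles, had 1.15, 1.46, 0.976 and 1.42 RPKM in the same order. Both had overlapping groups, and *Act79B* was the transcribed member nearest to the threshold. The cytoplasmic actins *Act5C* and *Act42A* took most of the family, with 83.0% to 84.9% and 7.72% to 8.97% of the summed actin RPKM.

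The fly actin genes code for closely similar proteins, and how reads that fit several genes were treated is not given in the sources used here. The split between family members is therefore uncertain. Counts of *Act88F* stayed at 0.0300% to 0.0326% of the *Act5C* counts in all 4 libraries, and those of *Act79B* at 0.0145% to 0.0200%. *Act57B* and *Act87E* had no such steady ratio, at 1.65% and 1.89% against 3.59% and 3.91% for *Act57B* and at 3.33% and 3.58% against 2.71% and 2.19% for *Act87E*. Whether the low levels of *Act88F* and *Act79B* include reads of *Act5C* was not tested.

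**Figure D3:**
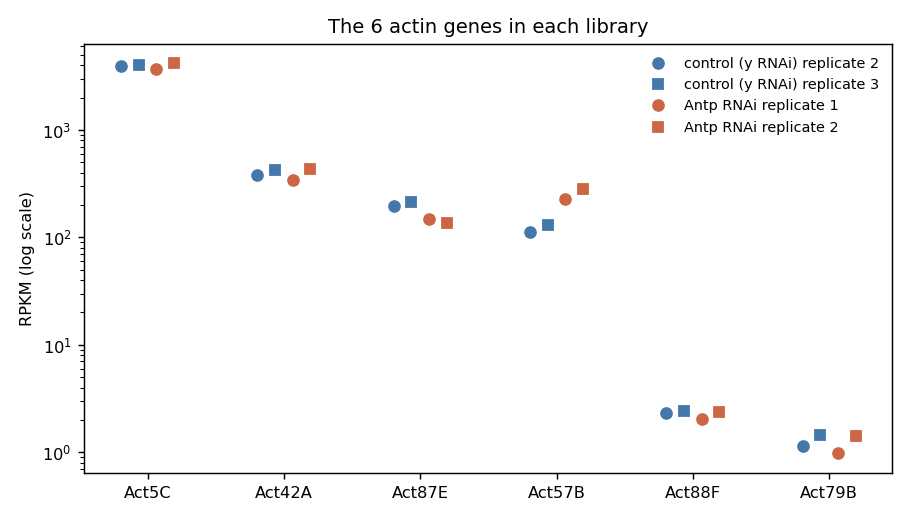
Level of the 6 actin genes in each library, in RPKM on a log axis, with control in blue and *Antp* RNAi in orange. *Act5C* is highest, *Act57B* and *Act87E* exchange their order between the groups, and *Act88F* and *Act79B* lie near 1 to 2.5 RPKM in every library.

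Regulators of the thin filament were the least represented role. *Tm1*, a tropomyosin gene with both muscle and cytoplasmic products, had 16.9 and 16.3 RPKM in the control, against 15.8 and 15.2 RPKM in *Antp* RNAi. *Tm2*, the neighboring tropomyosin gene 1413 bases away on chromosome 3R, had 0, 4, 8 and 3 counts. Counts over a whole gene do not tell which *Tm1* products were present.

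The subunits that bind tropomyosin and inhibit myosin were also near the floor. *up*, for troponin T, had 19 and 18 counts in the control, against 17 and 18 in *Antp* RNAi. *wupA*, for troponin I, had 9, 3, 2 and 3 counts. Neither reached 0.2 RPKM in any library.

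The 5 troponin C genes code for the calcium sensor of the thin filament, and none was transcribed. *TpnC25D* had the most RNA, with 38 and 43 counts in the control, against 10 and 25 in *Antp* RNAi, and its groups did not overlap. *TpnC73F* had 4, 6, 13 and 3 counts, and *TpnC41C* had 3, 5, 6 and 11.

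*TpnC47D* had 0, 2, 1 and 0 counts and *TpnC4*, the stretch-activation isoform of flight muscle, had 1, 0, 0 and 0, so both were silent. *TpnC25D* shares 54 exon bases with *tkv* on the opposite strand, a gene with 20803 to 32305 counts, and the library kit does not keep strand. The part of *tkv* reads in its counts was not tested.

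Among the giant proteins that connect thick filaments to the Z-disc and the M-line, *sls* and *zormin* were transcribed and *bt* and *Unc-89* were not. *sls*, the titin-like gene of the elastic filament, had 4.97 and 4.07 RPKM in the control, against 5.99 and 4.42 RPKM in *Antp* RNAi, with overlapping groups. *zormin*, for another protein of the Z-disc and M-line, had 8.68 and 8.28 RPKM in the control, against 13.0 and 12.8 RPKM in *Antp* RNAi, with no overlap. The genes lie side by side on the same strand of chromosome 3L, 1854 bases apart. *bt*, for projectin, had 7 to 11 counts in every library although its exons span 28019 bases, and *Unc-89*, for obscurin of the M-line, had 161 to 251 counts and a control level of 0.258 RPKM.

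At the Z-disc, the transcribed genes were *Actn* (27.9 ± 0.947 RPKM in the control, SD, n = 2), for alpha-actinin, *cher* (7.30 ± 0.609 RPKM), for filamin, and *Msp300* (2.45 ± 0.0805 RPKM), for a nesprin that links nuclei to the cytoskeleton. All 3 proteins also work outside muscle. The Zasp genes, whose PDZ and LIM proteins bind alpha-actinin, were low throughout, with 50 to 95 counts for *Zasp52*, 1 to 6 for *Zasp66* and a single count in 1 library for *Zasp67*. The muscle LIM genes *Mlp84B* and *Mlp60A* had 28 to 70 and 2 to 6 counts. *Actn* shares exon bases with 3 genes, of which *east* alone held 13844 to 17419 counts against 6520 to 8005 for *Actn*, so its level is uncertain. The same holds for *cher*, which shares 406 bases with *cal1* on the opposite strand.

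Of the 7 capping and assembly genes, among which the myosin chaperone gene *unc-45* was counted, 6 lay between 13.6 and 106 RPKM in the control. *cpa* and *cpb*, the subunits of the capping protein at barbed ends, had 106 and 66.8 RPKM in the control. *cpa* had 106, 106, 103 and 104 RPKM over the 4 libraries and *cpb* 66.3, 67.4, 64.6 and 71.0 RPKM. The 2 subunits, which act as a pair, thus differed less than 2-fold per length in every library, and the spread of *cpa* between replicates was the smallest of the tested members (pooled SD 0.0098 on the log2 scale).

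*flr*, for an actin-interacting protein that promotes filament disassembly, had 97.0, 96.2, 93.4 and 100.4 RPKM. *Lasp*, for a LIM and SH3 protein of the thin filament, had 64.4, 62.2, 73.2 and 67.6 RPKM. *Lasp* shares all of its exon bases with *CG43954*, whose counts were identical in every library, so both rows hold the same reads and cannot be told apart.

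*unc-45*, for a myosin chaperone, had 38.4 ± 1.30 RPKM in the control (SD, n = 2) and *tmod*, for the cap of pointed ends, 13.6 ± 0.501 RPKM. *Fhos*, for a formin of thin filament growth, was the only trace gene of the group at 0.771 ± 0.0225 RPKM. Per length, *unc-45* RNA was 194 to 627 times that of the muscle myosin gene *Mhc*. It was below that of the cytoplasmic myosin gene *zip*, at 189 RPKM in the control.

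Together the 38 genes took 0.278% to 0.305% of the counts, with summed levels of 2776 and 2777 CPM in the control, against 3027 and 2931 CPM in *Antp* RNAi. The roles took unequal parts of the sum. Capping and assembly genes gave 1103 to 1126 CPM of it and the actins 584 to 760 CPM. Z-disc and linker genes gave 386 to 401 CPM and titin-like and M-line genes 344 to 514 CPM. Thick filament genes gave 107 to 143 CPM. All 9 thin filament regulators gave 145 to 162 CPM, nearly all of it *Tm1*.

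Genes of the cytoplasmic actomyosin network were listed for comparison. All 17 were transcribed, from 10.4 to 3942 RPKM in the control. None was called between the groups by edgeR (2.58% of all genes tested), DESeq2 or limma-voom, and none had an unadjusted p under 0.05 in edgeR (11.5% of all genes tested), with log2 fold changes from -0.20 to 0.10. Of 8 further myofibril genes, 6 were transcribed: *Hsp83*, *GstS1*, *DAAM*, *Frl*, *CAP* and *sals*. They ran from *Hsp83* at 4739 RPKM in the control down to *sals* (1.19 RPKM), which lengthens thin filaments. *Mf*, for myofilin of the thick filament, had 1 count in all. Of 9 membrane and synapse genes of formed muscle, *SERCA*, the calcium pump, was transcribed (66.5 RPKM), and of the 5 muscle glutamate receptor genes *GluRIIA* and *GluRIIB* had 0 counts in every library. *GluRIIC* (6 to 38 counts), *GluRIID* (0 to 5) and *GluRIIE* (33 to 52) were at trace level.

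To ask whether sarcomere genes differed after RNAi against *Antp* at this stage, counts were compared between the groups by the edgeR quasi-likelihood test, and a gene was called at an adjusted p under 0.05. Of the 38 genes, 25 passed the filter on low counts (65.8%, against 59.2% of all genes and 67.4% of protein-coding genes) and 13, with 0 to 13 counts, did not. Of the 25, *Act57B* and *zormin* rose in *Antp* RNAi and *Mlc2* and *Act87E* fell. These 4 made up 16.0% of the tested members, against 2.58% of all genes tested (1.36% higher and 1.22% lower). The same 4 genes were called by DESeq2 (4.13% of all genes) and by limma-voom (2.6%). At the study's threshold of 0.001, edgeR called 0 members (0.463% of all genes) and limma-voom 0, while DESeq2 called 3 (*Act57B*, *Mlc2* and *zormin*, 2.12% of all genes), and 5 of the 25 members had an unadjusted p under 0.05 in edgeR (11.5% of all genes). All 4 calls come from the libraries that the study itself compared, and *Mlc2* is a gene it singled out from them, so none is independent evidence. The members were chosen with earlier results of these data known, so the share of 16.0% is not independent evidence either.

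**Figure D4:**
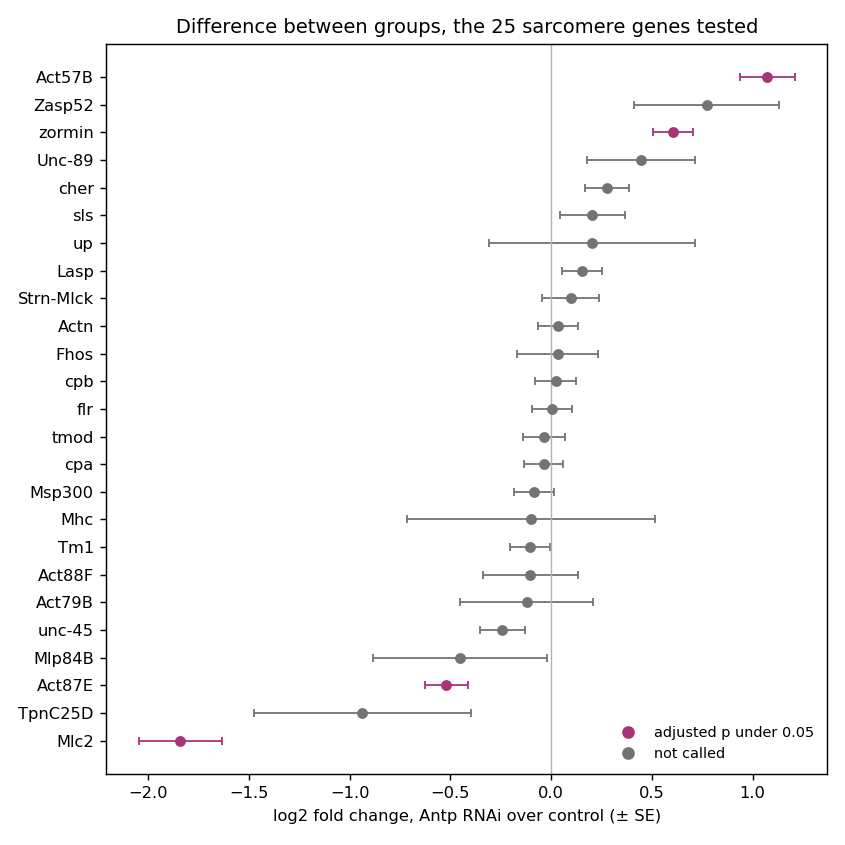
Log2 fold change (*Antp* RNAi relative to control) with its SE for the 25 sarcomere genes that passed the filter on low counts, from the edgeR fit. The 4 called genes, in purple, are *Act57B* (1.07) and *zormin* (0.61) on the right and *Act87E* (-0.52) and *Mlc2* (-1.84) on the left; the wide bars of *Mhc* and *TpnC25D* go with low counts.

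*Mlc2* (FBgn0002773, chromosome 3R, 30171438 to 30174551, minus strand) showed the largest difference of the tested members. It had 11.6 and 9.78 CPM in the control, against 3.18 and 2.78 CPM in *Antp* RNAi. Both *Antp* RNAi libraries were far below both controls, and the means were 10.7 ± 1.27 and 2.98 ± 0.283 CPM (SD, n = 2 each). The level in *Antp* RNAi was 27.9% of the control, a log2 fold change of -1.84 (SE 0.20, adjusted p = 0.00241, edgeR). Its exons share no base with another gene, and leaving out any single library gave -1.95 to -1.70.

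*Act57B* (FBgn0000044, chromosome 2R, 20944021 to 20946431, plus strand) moved the other way. It had 191 and 224 CPM in the control, against 392 and 483 CPM in *Antp* RNAi. Both *Antp* RNAi libraries were above both controls, and the means were 208 ± 23.2 and 438 ± 64.6 CPM. The level was 2.10-fold higher, a log2 fold change of 1.07 (SE 0.14, adjusted p = 0.00485, edgeR).

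*Act87E* (FBgn0000046, chromosome 3R, 13425983 to 13428375, plus strand) had 387 and 425 CPM in the control, against 296 and 270 CPM in *Antp* RNAi. Both *Antp* RNAi libraries were lower, with means of 406 ± 27.0 and 283 ± 18.1 CPM (log2 fold change -0.52, SE 0.11, adjusted p = 0.0460, edgeR). The call was lost without control replicate 2 (log2 fold change -0.57, adjusted p = 0.184) or control replicate 3 (-0.44, adjusted p = 0.553), where the lone control is assumed to vary like the other group. It was also lost with median-of-ratios scaling (-0.51, adjusted p = 0.0548).

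Set against each other, the 2 actins exchanged their order. Per length, *Act57B* was 0.571 and 0.609 times *Act87E* in the control, against 1.53 and 2.06 times in *Antp* RNAi. In the summed RPKM of the 6 actin genes, *Act57B* had 2.42% and 2.73% in the control, against 5.18% and 5.60% in *Antp* RNAi, and *Act87E* had 4.23% and 4.49% against 3.39% and 2.72%. *Act5C*, the main actin, had a log2 fold change of -0.011 and was not called. Small RNA gene *snoRNA:660* lies within *Act57B* and held 10.0% to 10.5% as many counts as it in every library, and *lncRNA:CR45591* held 3.15% to 3.36% as many as *Act87E*. With those counts subtracted, *Act57B* had a log2 fold change of 1.08 (adjusted p = 0.00513) and *Act87E* of -0.52 (adjusted p = 0.0472).

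*zormin* (FBgn0052311, chromosome 3L, 2117466 to 2151700, minus strand) had 105 and 100.1 CPM in the control, against 157 and 155 CPM in *Antp* RNAi. Replicates lay close together and the groups far apart, with means of 102 ± 3.39 and 156 ± 1.23 CPM. The log2 fold change was 0.61 (SE 0.099, adjusted p = 0.0176, edgeR). The call was lost without control replicate 2 (adjusted p = 0.0989) or replicate 3 (0.205), where the log2 fold change was 0.66 and 0.58. *asRNA:CR45802*, on the opposite strand, held 0.786% to 2.12% as many counts as *zormin*.

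**Figure D5:**
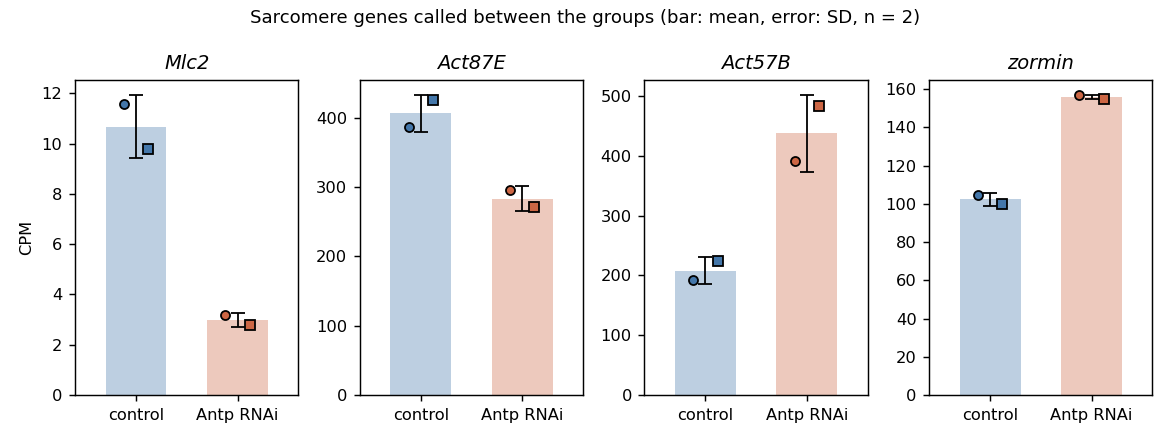
CPM of the 4 called sarcomere genes in each library. Bars are means, error bars the SD of 2 libraries, points the libraries (circles and squares for the replicates), and every axis starts at 0; in each panel the control and *Antp* RNAi points do not overlap.

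*sls*, the neighbor of *zormin*, was not called (log2 fold change 0.20, SE 0.16, adjusted p = 0.762). *Antp* RNAi replicate 1 was the highest of its libraries and control replicate 3 the lowest. Without *Antp* RNAi replicate 2 the log2 fold change was 0.43 (adjusted p = 0.0152), and without *Antp* RNAi replicate 1 it was -0.028. *Strn-Mlck* did the same, at 0.31 (adjusted p = 0.0261) without replicate 2 and -0.12 without replicate 1 of *Antp* RNAi. *unc-45* was called, at -0.34 (adjusted p = 0.0263), without *Antp* RNAi replicate 1 only. In those fits 13.0% and 7.03% of all genes were called, without *Antp* RNAi replicate 2 and replicate 1.

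The remaining transcribed members differed little. Over the 14 that were not called, log2 fold changes ran from -0.24 for *unc-45* to 0.28 for *cher*, with SEs of 0.097 to 0.33. *cher* had an unadjusted p of 0.0368 and an adjusted p of 0.370. For the 7 capping and assembly genes the range was -0.24 to 0.15. The SE was smallest for *cpa* (log2 fold change -0.036, SE 0.097) and largest for *Act79B* (-0.12, SE 0.33), whose sign turned positive without control replicate 3 or *Antp* RNAi replicate 1.

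Of the trace genes 7 were tested, and none was called. Their log2 fold changes ran from -0.94 for *TpnC25D* (SE 0.54, adjusted p = 0.616) to 0.77 for *Zasp52* (SE 0.36, adjusted p = 0.477). *Zasp52* had 50 and 79 counts in the control, against 95 and 85 in *Antp* RNAi, with both *Antp* RNAi libraries higher. *Mhc*, whose replicates were far apart, had a log2 fold change of -0.099 with an SE of 0.62. The 4 silent genes, low in both groups by the definition of the class, had 0 to 2 counts in any library.

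Over the 25 tested members the median log2 fold change was 0.0042, against -0.012 over all genes tested. The groups did not overlap for 14 of the 25 (56.0%, against 40.6% of all genes tested), with 7 higher and 7 lower (18.6% and 22.1% of all genes). As many members lay higher as lower. Of the 8 further myofibril genes, *GstS1*, a glutathione transferase found in flight muscle, rose by 1.22 on the log2 scale (adjusted p = 0.000627, edgeR). *CAP*, for a vinculin-binding adaptor, rose by 0.65 (adjusted p = 0.0274, edgeR). These were the 2 called of 7 tested, against 2.58% of all genes tested. In this list 4 tested genes lay higher without overlap and 2 lower. Among the lower was *l(2)efl* (38 and 17 counts in the control, against 5 and 5, not called). *Sclp*, of the membrane and synapse list, rose by 1.26 (adjusted p = 0.0442, edgeR), the 1 called of 5 tested. In that list 3 tested genes lay higher without overlap and 1 lower, *GluRIIC* (38 and 27 counts against 6 and 11, not called).

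Markers of other cell types were measured beside these differences. For each call below, the share over all genes tested was 2.58% in edgeR. Of 6 fat body markers *Lsp2* and *Fbp1* had 0 counts, but *apolpp* rose (22 and 42 counts against 1121 and 564), and the summed level, in *Antp* RNAi nearly all of it *apolpp*, was 0.696 to 0.918 CPM in the control and 12.5 to 26.7 CPM in *Antp* RNAi. *Lsp1beta* had 13 and 8 counts against 2 and 7, and *Lsp1alpha* and *Fbp2* at most 4. Of 10 hemocyte markers *NimC1* fell (44 and 45 counts against 1 and 1), *Hml* had 10 counts in 1 control library and none elsewhere, and the sum was 7097 to 7365 against 7758 to 7782 CPM, nearly all of it *Ppn*. Of 12 disc epithelium markers *caup* rose, the 1 called of 11 tested, with sums of 1474 to 1508 against 1450 to 1620 CPM. Nearly all of that sum was *shg*, *rn*, *ara* and *caup*. Of the 11 tested, 5 had an unadjusted p under 0.05 in edgeR (11.5% of all genes tested). Of these, *caup*, *ara*, *rn* and *nub* lay higher in *Antp* RNAi and *shg* lower (log2 fold change -0.36). Some low markers differed between the control libraries, replicate 2 then 3: *nub* had 72 and 240 counts, *grh* 95 and 210, *Dll* 9 and 96 and *wg* 11 and 84. *hh* (142 and 70 counts), *ara*, *caup* and *Ubx* (1 and 0) ran the other way. Of 3 tendon markers *slow* rose (312 and 327 counts against 831 and 583), with sums of 9.82 to 10.6 against 17.4 to 23.9 CPM. The rise in that sum was *slow*, as *sr* (log2 fold change 0.16) and *Lrt* (-0.057) were not called. No tracheal marker (of 5) and no neuron or glia marker (of 5) was called by edgeR, DESeq2 or limma-voom, with 1 and 0 at an unadjusted p under 0.05 in edgeR (11.5% of all genes tested). The part of these cells, and of the lower myoblast markers *Ama* and *ct*, in the differences of *Mlc2*, *Act57B*, *Act87E* and *zormin* was not tested.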

How the data were processed

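RNA-seq was made from 2 ng of RNA per library with 10 cDNA and 12 library PCR cycles (SMART-Seq v4 and Nextera XT, not stranded). The deposited table holds whole-number counts per gene over exons, made by the authors; their processing notes name bcl2fastq 2.17.1.14, Subread, featureCounts, DESeq2 1.34 and dm6. Handling of overlapping genes and multi-mapped reads is not given in the sources used here. The authors also deposited their DESeq2 comparison (a mean signal, log2 fold change and its error, a Wald score and p-values); only its gene symbols were read. Count columns that matched no sample numbered 0.

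Counts of 4 libraries, grouped by sample title, were tested with edgeR 4.0.16 (R 4.3.3; quasi-likelihood, two-sided, TMM, minimum count 10, 10360 genes, Benjamini-Hochberg over all). DESeq2 1.42.0 and limma-voom (3.58.1) were alternatives, as were other scalings, filters, thresholds and leaving out each library. Each of the edgeR, DESeq2 and limma-voom fits was tested on simulated data with known changes. The threshold of 0.05 replaced the study's 0.001 because 2 libraries per group leave few degrees of freedom. RPKM are TMM-scaled CPM per kilobase of exon. A count of 3 was the floor. Values per library are given for called genes, the 6 highest, the actin and troponin C families and the largest change each way; *Mhc*, *Mlc1*, *Prm*, *Tm1*, *Tm2*, *up*, *wupA*, *sls* and *Zasp52* were added after their values were seen. Members and lists were chosen with earlier results of these data known. Positions are those of the deposited table; 36 of 38 members have the same position in annotation release 115.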

Additional observations from a re-analysis of the deposited data

How the results depend on the processing

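The calls of *Mlc2* and *Act57B* kept their direction and their side of the 0.05 threshold under every scaling, filter, tool and left-out library run. Of the 4 calls, 0 remained at an adjusted p under 0.001 in edgeR (where *Mlc2*, at -1.84, had 0.00241). Leaving out members with exon overlap kept 1 call, of 14 members tested, and 8 transcribed genes. Leaving out each library gave 2 to 6 calls, with *Act57B* and *Mlc2* alone called without either control library, and a log2 ratio of summed member levels of 0.084 to 0.14 (0.10 with all libraries). *Act87E* was also lost with a mean of at least 100 counts (-0.52, adjusted p = 0.0542). Single genes were followed through the alternatives only if called here or under any alternative, among the 6 highest, or a muscle actin or *TpnC25D*. Among these, signs turned only for members that were not called. Signs of the other tested members were not followed. With a library left out, *Act79B* ranged from -0.40 to 0.13 (0.07 without control replicate 3, 0.13 without *Antp* RNAi replicate 1), *Strn-Mlck* from -0.12 to 0.31 and *sls* from -0.028 to 0.43 (both negative without *Antp* RNAi replicate 1), and *cpb* from -0.030 to 0.094 and *flr* from -0.031 to 0.061 (both negative without *Antp* RNAi replicate 2). *flr* was also at -0.013 with upper-quartile scaling and -0.012 with library totals. The cause was not tested. Transcribed genes numbered 20 at 0.5 RPKM, 12 at 5 RPKM, 23 at 1 CPM and 18 with any library left out. The class rests on control levels, so leaving out an *Antp* RNAi library could change it only through scaling and the count floor. Subtracting the counts of overlapping genes from *Act57B*, *Act87E* and *zormin* alone, chosen after seeing the data, kept their calls (*zormin* 0.62, adjusted p = 0.0160). *Mlc2* has no overlap, and other overlapping members were not changed. No paired analysis was possible because only number 2 occurs in both groups. Promoter motifs were not analysed here. With 2 libraries a group, the SE of a log2 fold change reached 0.62 for *Mhc*, whose replicates were far apart.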
